A study of Mus musculus with 4 samples.

Results

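The genes described here belong to 2 imprinted clusters of mouse chromosome 7, the Prader-Willi and Angelman cluster (Snrpn, Snurf, Ndn and Ube3a) and the Peg3 cluster (Peg3, Usp29 and Zim1). These 7 genes were chosen by name, with earlier results of these data known. A row of the expression tables was taken as theirs when its symbol, split at commas, held a member. Of the 7 genes, 5 were listed, in 4 of the 14099 rows of each table, because Snrpn and Snurf share a joined row. Usp29 and Zim1 were absent from the tables and have no value here. All 4 member rows passed the filter on low values and were among the 11912 rows tested.

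Polyadenylated RNA was sequenced from mouse embryonic stem cells, in 2 libraries of wild-type (WT) cells and 2 of Naa10-KO cells, which carry a knockout of the catalytic subunit of the N-terminal acetyltransferase NatA. Both genotypes were F1 hybrids from C57BL/6 females that carried a Naa10 knockout allele and WT JF1 males, and the WT cells were littermates of the knockout cells. All cells came from the inner cell mass of blastocysts and were kept under LIF plus Mek and Gsk3 inhibition, with 5 passages on irradiated embryonic fibroblasts followed by 5 on none. The labels call the libraries biological replicates without saying whether they came from separate lines, so the p-values given cover only the spread among the 4 libraries, which may be technical. The labels give neither the sex of the lines nor their number. Naa10 lies on chromosome X, and daughters of this cross receive a WT X from the father. Naa10-KO cells with no WT allele would therefore be male, while the sex of the WT cells is not known. Whether the genotypes differed in sex was not tested.

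Imprinted genes are transcribed mainly from the allele of 1 parent, because a control region is DNA-methylated in 1 germline and not in the other. In the Prader-Willi cluster the control region lies at the start of Snrpn and Snurf and is methylated on the maternal chromosome, so Snrpn, Snurf, Ndn and a long noncoding RNA that runs toward and across Ube3a are made from the paternal chromosome. Ube3a is silenced on the paternal chromosome in neurons by that noncoding RNA and is transcribed from both alleles in most other cells. In the Peg3 cluster, Peg3 and Usp29 start back to back at a control region that is methylated on the maternal chromosome and are expressed from the paternal one, whereas Zim1 is expressed from the maternal one. In the F1 cells the paternal chromosome is that of JF1. The values sum both alleles, so a higher value can come from the active allele or from the normally silent one, and these cannot be told apart.

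Expression is given as RPKM, a read density scaled to transcript length and to the mapped reads of each library, and can be compared between genes on that scale. Differences were tested with limma on log2(RPKM + 1), Naa10-KO minus WT, with p-values adjusted by Benjamini-Hochberg over all tested rows and a threshold of 0.05. A difference on this scale understates the change of low genes. The joined row of Naa10 and its neighbour Renbp read 105 and 106 RPKM in the WT pair, against 28.9 and 34.4 in the Naa10-KO pair, so both libraries labelled Naa10-KO lay below both labelled WT. All 10 embryonic stem cell markers of a list, among them Pou5f1 at 808 to 971 RPKM, were listed in every library with no value at 0. Estimated depth was 50960000 and 51979200 fragments in the WT libraries and 74401600 and 85612800 in the Naa10-KO libraries. The Naa10-KO libraries differed from each other by a median of 0.24 on the log2 scale and the WT libraries by 0.05. Summed over 16 fibroblast markers, which the feeder cells express, Naa10-KO replicate 1 had 260.0 RPKM, Naa10-KO replicate 2 had 64.4 RPKM and the WT libraries had 112 and 120 RPKM.

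Every listed member was higher in both Naa10-KO libraries than in both WT libraries, in 4 of 4 rows. Among all tested rows, 24.4% were higher in this way and 34.9% lower. The median log2 difference of the 4 member rows was 0.63, and over all tested rows it was -0.06. None of the 4 passed the adjusted threshold in limma, against 0.218% of all tested rows called higher. At an unadjusted p under 0.05, 3 of the 4 rows were higher and 0 lower, beside 8.9% higher and 13.2% lower among all tested rows. The members were chosen with earlier results of these data known, so these shares describe the rows and test nothing. Without Naa10-KO replicate 1, when the close WT pair alone gives the spread, the adjusted p was 0.00605 for Snrpn with Snurf, 0.0150 for Ndn and 0.0104 for Peg3, in a fit that called 2249 of all 11912 rows higher and 2689 lower. Without Naa10-KO replicate 2 it was 0.00353, 0.00315 and 0.00561, with 2820 rows called higher and 4261 lower. Without either WT library, none of the 4 rows passed. In bulk RNA, fewer cells of a type and less RNA per cell cannot be told apart.

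**Figure D1:**
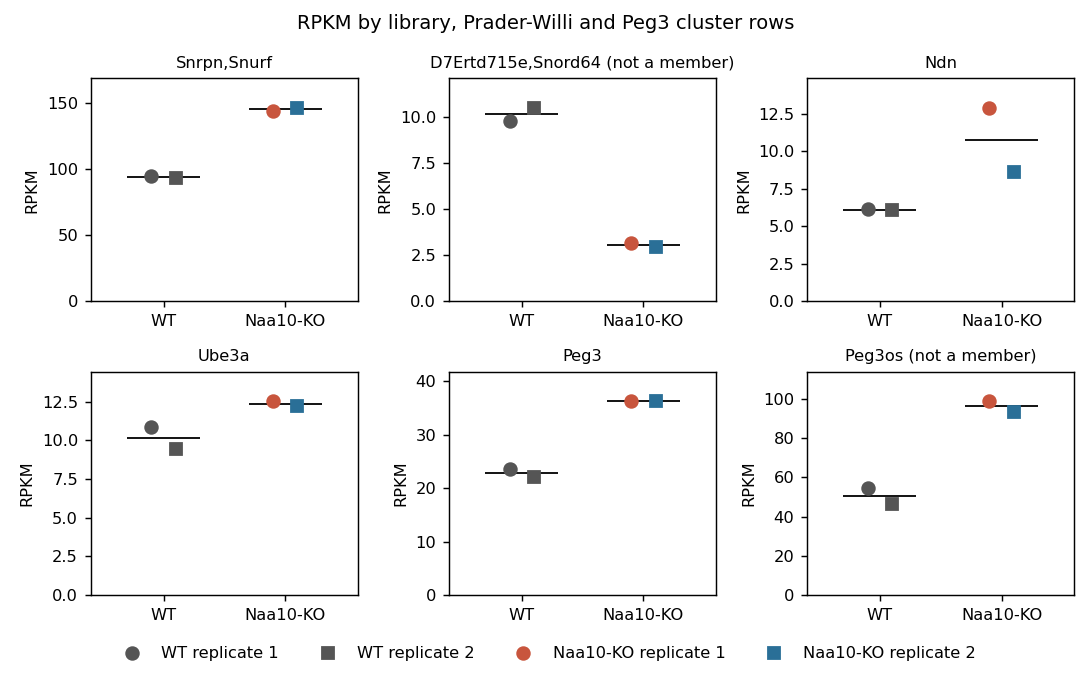
RPKM (vertical axes, each from 0) in the 2 WT and 2 Naa10-KO libraries for the 4 member rows and for 2 neighbouring noncoding rows. Points are libraries and horizontal lines are group means; the groups stay apart in all 6 panels, and the joined row of D7Ertd715e and Snord64 is the panel in which Naa10-KO is lower.

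Snrpn encodes SmN, a core protein of the spliceosomal snRNPs in brain and other tissues, and Snurf encodes a small protein from the upstream reading frame of the same transcript. Their joined row measured 94.5 and 93.5 RPKM (WT) against 144 and 146 (Naa10-KO). The replicates of each genotype nearly coincided, and the genotypes did not overlap. The means were 94.0 ± 0.706 RPKM for WT and 145 ± 1.63 RPKM for Naa10-KO (SD, n = 2 each), a ratio of 1.55 that did not pass the test (log2 difference 0.62, SE 0.06, 95% interval 0.45 to 0.80, limma adjusted p = 0.0628). Among all tested rows, 533 had a larger log2 difference. The Snurf reading frame lies whole inside the Snrpn transcript, since 100% of its 50-base words also occur there, so reads cannot be given to either gene alone.

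Snrpb, the paralog that encodes the SmB proteins, shared no 50-base word with the Snrpn transcript in GENCODE M21, so exact matches of that length do not link the rows. Snrpb had 212 and 214 RPKM in the WT pair, against 243 and 200.4 in the Naa10-KO pair, and its groups overlapped. The ratio of the Snrpn row to Snrpb was 0.446 and 0.438 in WT and 0.594 and 0.731 in Naa10-KO. Predicted genes do share words with Snrpn: 20.6% of the words of the Snrpn transcript also occur in Gm38393, and 26.2% in any other gene, Snurf included.

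The start of Snrpn and Snurf is shown because it is the control region of the cluster, together with the start of Ndn. Both are RefSeq windows of 250 bases before to 50 bases after the start, in build GRCm38.p6, whereas the deposited values rest on mm9. Capitals mark the octamer CGCATGCG, which reads the same on both strands and forms the inner part of the motif of the transcription factor NRF1, and in the Snrpn and Snurf window also the hexamer TGCCGC of the imprint-protecting factor Zfp57, on the reverse strand.
Snrpn and Snurf (chr7:60005150-60005449, minus strand): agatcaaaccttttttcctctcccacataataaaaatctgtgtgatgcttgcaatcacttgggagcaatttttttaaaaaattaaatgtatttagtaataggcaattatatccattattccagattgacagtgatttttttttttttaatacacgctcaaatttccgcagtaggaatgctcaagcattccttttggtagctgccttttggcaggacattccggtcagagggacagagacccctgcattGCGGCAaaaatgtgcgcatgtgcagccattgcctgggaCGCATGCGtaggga
Ndn (chr7:62348027-62348326, plus strand): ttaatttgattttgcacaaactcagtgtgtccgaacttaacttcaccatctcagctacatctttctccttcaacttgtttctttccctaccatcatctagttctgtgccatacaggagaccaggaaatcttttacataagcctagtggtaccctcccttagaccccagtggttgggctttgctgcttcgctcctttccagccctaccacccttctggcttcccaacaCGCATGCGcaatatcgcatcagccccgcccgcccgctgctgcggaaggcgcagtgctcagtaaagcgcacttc
The octamer starts 37 bases into the Snrpn and Snurf transcript and 23 bases before the Ndn start. It was chosen after the windows had been read.

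RefSeq gives Snrpn 3 further starts upstream, and their windows hold the octamer too. They are shown, with the same stretch from the other windows, because the transcripts that begin there are part of the paternal transcription unit.
Snrpn and Snhg14, farthest upstream (chr7:60450222-60450251, minus strand): gcaaacatccaCGCATGCGtgattggaagg
Snrpn, middle (chr7:60140285-60140314, minus strand): gcaaacatccaCGCATGCGtgatgggaggg
Snrpn, nearest upstream (chr7:60048031-60048060, minus strand): gcaaacatgcaCGCATGCGtcgttgaaggt
Snrpn and Snurf (chr7:60005150-60005174, minus strand): attgcctgggaCGCATGCGtaggga
Ndn (chr7:62348243-62348272, plus strand): gcttcccaacaCGCATGCGcaatatcgcat
The 3 upstream stretches are near copies of each other and do not count as separate occurrences. Of the 9 member windows 5 held the octamer, all in the Prader-Willi cluster, and of 32817 RefSeq windows of this length 1.86% did. The full NRF1 motif, searched on both strands, was in none of the member windows and in 4.59% of all windows. The Zfp57 hexamer was in the windows of Snrpn with Snurf and of Zim1, and in 11.6% of all windows. These matches describe letters and not binding.

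Ndn encodes necdin, a MAGE family protein that binds p53 and E2F1 and is abundant in neurons. It had 6.16 and 6.06 RPKM in WT, 12.9 RPKM in Naa10-KO replicate 1 and 8.64 RPKM in Naa10-KO replicate 2. The Naa10-KO values were each above the WT values, and they were far apart from each other. Group means were 6.11 ± 0.0703 and 10.8 ± 3.04 RPKM (SD, n = 2 each). The difference did not pass (log2 difference 0.70, SE 0.21, 95% interval 0.11 to 1.30, limma adjusted p = 0.186). The log2 difference was 0.44 without Naa10-KO replicate 1 and 0.97 without replicate 2. Ndn is a single-exon gene, taken here at its RefSeq length of 1652 bases. With fragments of 200 bases its values rest on an estimated 456 and 458 fragments in WT and 1398 and 1075 in Naa10-KO. The longest Ndn transcript of GENCODE M21 has 3694 bases, and with that length the estimates would be higher. Which length the deposited values used is not known.

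Fibroblast markers moved between the Naa10-KO libraries in the same direction as Ndn. In replicate 1, 14 of 16 markers lay above both WT libraries and 2 below both, with a median ratio of 1.98 to the WT mean. In replicate 2, 0 lay above and 16 below, with a median ratio of 0.623. No marker was at 0 in any library, and the summed levels were 112 to 120 RPKM in WT and 64.4 to 260.0 RPKM in Naa10-KO. Their part in the level of Ndn in replicate 1 was not tested. In replicate 2, where every fibroblast marker was below WT, Ndn stood at 1.41 times the WT mean. Replicate 1 was 1.497 times replicate 2 for Ndn, 0.984 times for the Snrpn row and 1.00 times for Peg3, while the fibroblast markers had a median of 4.28, from 1.41 to 8.43.

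**Figure D2:**
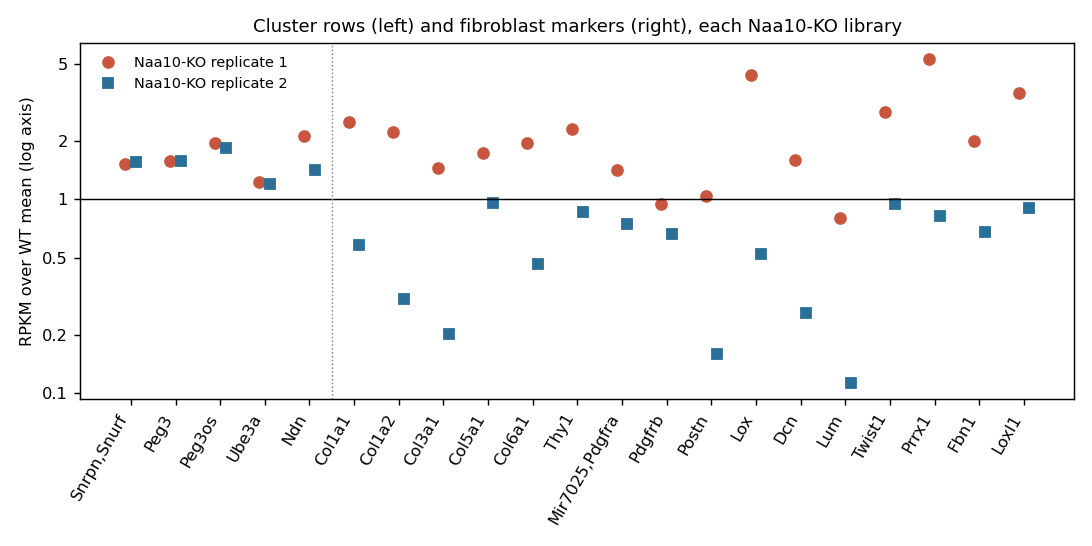
RPKM of each Naa10-KO library divided by the WT mean (log axis) for the member rows and Peg3os on the left and 16 fibroblast markers on the right; the horizontal line at 1 is the WT mean. Replicates coincide for Snrpn with Snurf and for Peg3, lie apart for Ndn at 2.12 and 1.41, and differ for every fibroblast marker, with replicate 1 the higher.

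Neural genes were checked as well, since neurons are known for high Snrpn and Ndn. Their summed level over 10 listed markers was 183 and 187 RPKM for WT against 205 and 190 for Naa10-KO. Of 8 tested rows, 2 lay above both WT libraries and 2 below both, beside 24.4% and 34.9% of all tested rows. None passed in limma, and 1 was higher and 1 lower at an unadjusted p under 0.05, beside 8.9% and 13.2%. Tubb3, a neuronal tubulin gene, had 23.3 and 24.4 RPKM in the WT pair, against 45.3 and 51.3 in the Naa10-KO pair (log2 difference 0.99, SE 0.10, limma adjusted p = 0.0625). Like the Snrpn row, it was above WT in both Naa10-KO libraries. Pax6, a neural transcription factor gene, was also above, with 0.843 and 1.04 RPKM (WT) against 2.72 and 1.504 (Naa10-KO). Stmn2, a microtubule regulator gene, read 132 and 134 RPKM (WT) against 88.9 and 115 (Naa10-KO), and Elavl3, an RNA-binding protein gene, 6.21 and 6.08 against 2.12 and 3.86. Both were thus below WT. Nefl, a neurofilament gene, read 10.3 and 9.88 RPKM (WT) against 46.4 and 9.73 (Naa10-KO), and Nes, an intermediate filament gene of neural progenitors, 4.89 and 5.34 against 13.5 and 3.74, so that in both genes replicate 1 alone was high. Sox1 and Map2 overlapped between the groups. Snap25 and Rbfox3 were below 1 RPKM in every library and were not tested, the former above and the latter below WT in both Naa10-KO libraries. Dcx and Syt1 were not listed, and the part of neural cells in the levels of the members was not tested.

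Ube3a encodes the E3 ubiquitin ligase whose loss causes Angelman syndrome. It measured 10.8 and 9.45 RPKM (WT) against 12.5 and 12.2 (Naa10-KO). The WT libraries were farther apart than the Naa10-KO libraries, and the gap between the groups was close to the WT spread. The log2 difference was 0.27 (SE 0.11, 95% interval -0.04 to 0.58, limma adjusted p = 0.265), and 2025 tested rows had a larger one. In GENCODE M21, 17.9% of the 50-base words of the Ube3a transcript, read on either strand, occur in Snhg14, the antisense host RNA. In any other gene, Snhg14 included, 27.4% of them occur. Strand-specific preparation is not mentioned in the labels, so reads of Ube3a and of the antisense RNA may not have been told apart.

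D7Ertd715e, a name that RefSeq now files under Snhg14, belongs to the noncoding RNA that runs through the cluster toward Ube3a and that RefSeq starts at the farthest upstream Snrpn start. Its row, joined with the small nucleolar RNA gene Snord64, had 9.80 and 10.5 RPKM in the WT pair, against 3.19 and 2.97 in the Naa10-KO pair. The groups lay far apart, and the row fell to 30.3% of its WT mean (log2 change -1.45, SE 0.11, 95% interval -1.76 to -1.14, limma adjusted p = 0.0414), where 0.546% of all tested rows were called lower. The call ended without WT replicate 1 (adjusted p = 0.759) or WT replicate 2 (0.803), when the lone WT library takes its spread from the Naa10-KO libraries. It also ended without rows listed at 0 and small RNA rows (adjusted p = 0.0819) and without a filter (0.0557). The same held with only rows of mean 5 RPKM or more (0.0585) and with the replicate block (0.112). The log2 difference was -1.41 with scaling to a common median and -1.69 with 0.1 RPKM in place of 1 added before the log. Small RNAs are measured poorly in libraries of this kind, and how much of the row is Snord64 is not known.

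Snrpn and D7Ertd715e thus differed in opposite directions. The ratio of the Snrpn row to the D7Ertd715e row was 9.64 and 8.89 in WT and 45.1 and 49.3 in Naa10-KO. The mean log2 of this ratio was 2.35 higher in Naa10-KO, and the genotypes did not overlap. On a ratio, an exact permutation test of 2 against 2 libraries cannot go below p = 0.333, so no p is given. Ipw, a noncoding RNA gene that lies between them, measured 1.03 and 1.16 RPKM (WT) against 1.06 and 1.01 (Naa10-KO), and its groups overlapped (log2 difference -0.04, 95% interval -0.36 to 0.28, adjusted p = 0.849).

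The other paternally expressed genes of the cluster were scarcely expressed and were not tested. Magel2, a MAGE gene and neighbour of Ndn, had 0.846 and 0.765 RPKM in the WT pair, against 1.14 and 0.644 in the Naa10-KO pair. Mkrn3, which encodes a zinc finger ubiquitin ligase, measured 0.768 and 0.572 RPKM (WT) against 0.722 and 0.496 (Naa10-KO). Peg12 had 0.474 and 0.676 RPKM in the WT pair, against 0.502 and 0.654 in the Naa10-KO pair. For all 3 the groups overlapped, at levels well below those of Ndn.

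Genes on the other side of Ube3a, most of them not imprinted, gave mixed values. Herc2, a large ubiquitin ligase that binds the Ube3a protein, measured 9.33 and 9.09 RPKM (WT) against 6.05 and 5.91 (Naa10-KO) (log2 difference -0.55, SE 0.10, limma adjusted p = 0.118). Cyfip1, a subunit of the actin-regulating WAVE complex, had 24.1 and 24.2 RPKM in the WT pair, against 29.1 and 27.5 in the Naa10-KO pair (adjusted p = 0.232). Atp10a, a lipid flippase gene, had a log2 difference of 0.18, and Tubgcp5, which encodes a subunit of the gamma-tubulin complex, one of -0.09. Gabra5, a GABA receptor subunit gene, was below 1 RPKM and not tested. Of the 7 tested rows of neighbours in the Prader-Willi region, the D7Ertd715e row fell and 6 did not pass, where 0.546% of all tested rows were called lower. Of these neighbours 2 lay above both WT libraries and 2 below both, beside 24.4% and 34.9% of all tested rows, and 3 overlapped. The median log2 difference of these rows was -0.04, the same as over the 931 tested rows of chromosome 7.

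**Figure D3:**
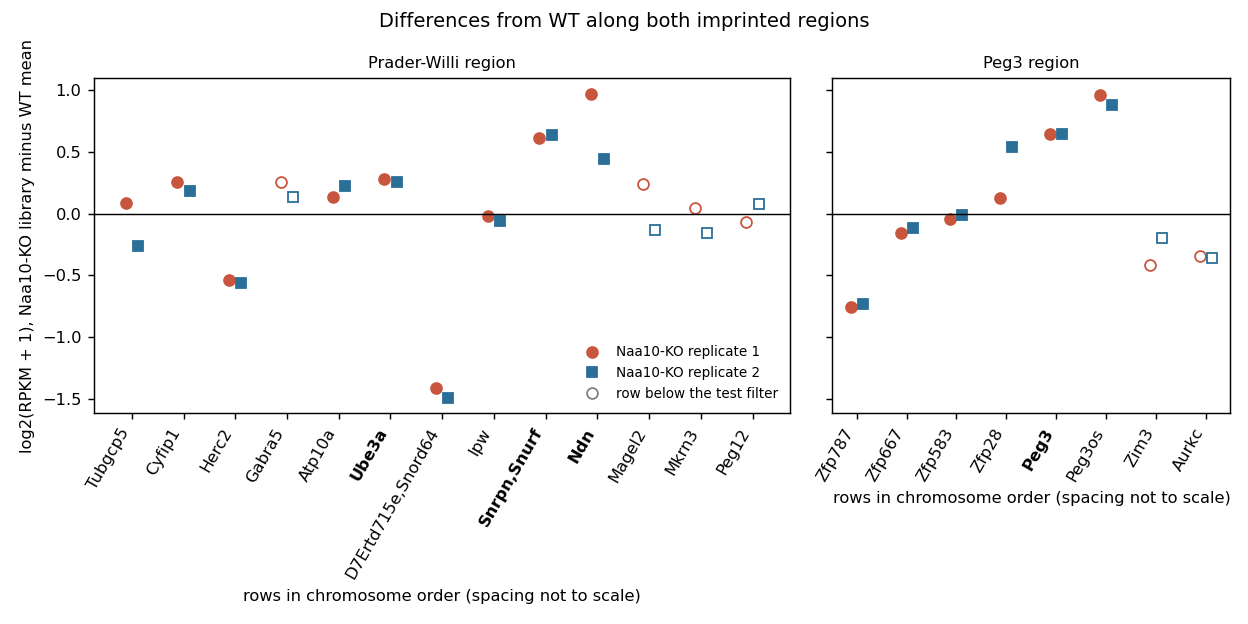
Difference of each Naa10-KO library from the WT mean on the log2(RPKM + 1) scale for the rows reported from both regions, in chromosome order and not to scale; member rows are in bold and open symbols are rows below the test filter. The member rows, Peg3os, Cyfip1, Atp10a, Gabra5 and Zfp28 lie above 0 in both libraries. D7Ertd715e with Snord64, Ipw, Herc2, Zfp787, Zfp667, Zfp583, Zim3 and Aurkc lie below in both. Tubgcp5, Magel2, Mkrn3 and Peg12 have a library on each side.

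Peg3 encodes a large zinc finger protein that binds DNA and is known for roles in maternal behaviour, metabolism and p53-linked cell death. It measured 23.6 and 22.0 RPKM (WT) against 36.2 and 36.2 (Naa10-KO). The Naa10-KO libraries coincided and lay well above both WT libraries. Group means were 22.8 ± 1.147 and 36.2 ± 0.0219 RPKM (SD, n = 2 each), a ratio of 1.59 that did not pass the test (log2 difference 0.64, SE 0.08, 95% interval 0.42 to 0.87, limma adjusted p = 0.0878). Of all tested rows, 489 had a larger log2 difference. No 50-base word of the Peg3 transcript occurred in a transcript of another gene of GENCODE M21. This does not make reads of Peg3 unique, because the RefSeq gene Peg3os lies inside its exons.

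Peg3os, an antisense noncoding RNA, lies within Peg3, and 100% of its 865 bases fall inside Peg3 exons. It had 54.8 and 46.3 RPKM in the WT pair, against 98.7 and 93.4 in the Naa10-KO pair (log2 difference 0.92, SE 0.11, 95% interval 0.61 to 1.22, limma adjusted p = 0.0841). The row was 1.90-fold higher on average, with no overlap between the groups. The ratio of Peg3os to Peg3 was 2.32 and 2.11 in WT and 2.72 and 2.58 in Naa10-KO. Without a known strand, reads of Peg3 and of Peg3os cannot be told apart, and the rows are not independent measurements.

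Peg3 and Usp29 are transcribed away from each other from a shared start region, with their starts 164 bases apart in the RefSeq windows. The windows overlap by 263 bases, so only that of Peg3 is shown, because Peg3 and the unlisted Usp29 both start in it. No capitals appear, because none of the motifs searched, the YY1 motif GCCATNTT, the Zfp57 hexamer, the NRF1 motif and the octamer, was found in it on either strand.
Peg3 (chr7:6730370-6730669, GRCm38.p6, minus strand): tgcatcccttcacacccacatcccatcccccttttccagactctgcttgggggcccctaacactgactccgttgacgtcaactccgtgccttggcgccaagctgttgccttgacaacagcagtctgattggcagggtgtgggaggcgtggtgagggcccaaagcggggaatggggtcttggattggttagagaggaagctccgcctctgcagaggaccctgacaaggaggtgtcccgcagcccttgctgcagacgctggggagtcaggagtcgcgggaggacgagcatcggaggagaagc
The window holds 13 CpG sites, that of Snrpn and Snurf 7, that of Ndn 11 and that of Ube3a 29, beside a median of 7 over all windows. YY1 is known for binding sites inside the Peg3 control region, which reaches beyond this window, and the absence of its letters here says nothing about binding there. The YY1 motif was in the Ube3a window and in 6.04% of all windows.

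Usp29 encodes a deubiquitinase of germline and brain, and Zim1 a zinc finger protein expressed in embryo and placenta. The tables hold no row whose highest value is below 0.270 RPKM, and whether the rows of Usp29 and Zim1 were dropped for a low level or for another reason is not known. Zim3, a noncoding RNA gene that overlaps Usp29, read 0.778 and 0.615 RPKM in the WT pair, against 0.267 and 0.476 in the Naa10-KO pair, and was not tested. Of the 50-base words of the Usp29 transcript, 33.2% also occur in Zim3 transcripts, so reads in that row can belong to either gene.

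The remaining listed neighbours of Peg3 gave mixed values. Zfp787, a zinc finger gene, measured 12.8 and 10.5 RPKM (WT) against 6.48 and 6.62 (Naa10-KO) (log2 difference -0.74, SE 0.13, limma adjusted p = 0.118). Aurkc, the Aurora kinase of germ cells, was below 1 RPKM in all libraries, with 0.560 and 0.485 (WT) against 0.201 and 0.184 (Naa10-KO), and was not tested. The zinc finger genes Zfp667, Zfp583 and Zfp28 had log2 differences of -0.14, -0.03 and 0.33. Zfp583 changed sign when libraries were scaled to a common median. Of 5 tested rows of this list, none passed in limma. At an unadjusted p under 0.05, 1 was higher and 1 lower, beside 8.9% and 13.2% of all tested rows. In the list 2 lay above both WT libraries and 2 below both, beside 24.4% and 34.9%, and the median log2 difference was -0.03.

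The log2 differences of the Snrpn row and of Peg3 were of like size, and their levels kept a near-constant ratio of 4.001 and 4.25 in WT and 3.98 and 4.05 in Naa10-KO. Likeness of pattern was measured as the distance between log2(RPKM + 1) profiles over the 4 libraries, centred on the WT mean, against 7918 other rows that averaged at least 5 RPKM. The 5 rows nearest to the Snrpn row were Tmem57 at a distance of 0.03, Hmga1, Stat3, Znhit1 and Vps18 at 0.04. The 5 nearest to Peg3 were BC030867 at 0.07, the Snrpn row itself at 0.07, 2310022A10Rik and Znhit1 at 0.07, and Rtkn at 0.08. The 5 nearest to Ndn were Msl1 at 0.05, Erf and Rela at 0.06, and Arl4c and Chpf at 0.07. With 4 libraries, many rows have nearly the same profile.

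**Figure D4:**
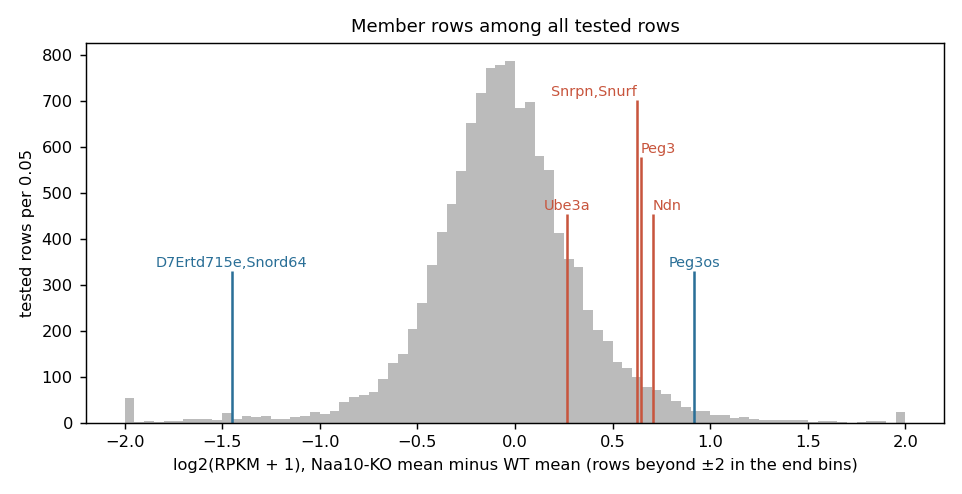
Distribution of the log2(RPKM + 1) difference between Naa10-KO and WT means over 11912 tested rows, with rows beyond ±2 in the end bins. Vertical lines mark the 4 member rows, at 0.27 to 0.70, and 2 neighbours, Peg3os at 0.92 and D7Ertd715e with Snord64 at -1.45.

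The proteins that work with the members were read from lists, beginning with the Sm core and the assembly of snRNPs for Snrpn. Of 23 tested rows none passed in limma. At an unadjusted p under 0.05, 2 were higher and 7 lower, beside 8.9% and 13.2% of all tested rows. In this list 7 lay above and 13 below both WT libraries, where all tested rows gave 24.4% and 34.9%. The median log2 difference was -0.10. Snrpd2, an Sm core protein gene, had 425 and 458 RPKM in the WT pair, against 326 and 313 in the Naa10-KO pair (adjusted p = 0.104). Smn1, whose product loads Sm proteins onto snRNAs, measured 71.0 and 68.8 RPKM (WT) against 90.6 and 94.0 (Naa10-KO) (adjusted p = 0.115).

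For Ndn, the list held MAGE proteins and their ligase partners. None of 17 tested rows passed in limma. At an unadjusted p under 0.05, 4 were higher and 1 lower, beside 8.9% and 13.2% of all tested rows. Of the MAGE list 9 lay above and 4 below both WT libraries, beside 24.4% and 34.9%, and the median log2 difference was 0.16. Maged2, another MAGE gene, had 10.1 and 10.5 RPKM in the WT pair, against 13.9 and 14.8 in the Naa10-KO pair (adjusted p = 0.138). Trp53, which encodes p53, a binding partner of necdin, measured 296 and 298 RPKM (WT) against 420.3 and 396 (Naa10-KO) (log2 difference 0.46, SE 0.07, limma adjusted p = 0.0987).

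For Ube3a, the list held its ubiquitin-conjugating enzymes, related HECT ligases and proteasome shuttles. None of 23 tested rows passed in limma. At an unadjusted p under 0.05, 2 were higher and 2 lower, beside 8.9% and 13.2% of all tested rows. Of the Ube3a list 10 lay above and 6 below both WT libraries, beside 24.4% and 34.9%, and the median log2 difference was 0.05. Ubqln2, a shuttle that brings ubiquitinated proteins to the proteasome, had 33.1 and 31.9 RPKM in the WT pair, against 58.5 and 68.7 in the Naa10-KO pair (log2 difference 0.95, SE 0.11, adjusted p = 0.0804). Herc2, given above, had the next smallest p of this list.

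For Peg3 and Usp29, the list held Siah ligases, the p53 pathway, beta-catenin partners and related zinc finger and deubiquitinase genes. Of 18 tested rows Mdm4 fell and 17 did not pass, where 0.546% of all tested rows were called lower. At an unadjusted p under 0.05, 1 was higher and 2 lower, beside 8.9% and 13.2% of all tested rows. Of these rows 3 lay above and 13 below both WT libraries, beside 24.4% and 34.9% of all tested rows, and the median log2 difference was -0.15. Mdm4, an inhibitor of p53, measured 25.7 and 24.6 RPKM (WT) against 11.1 and 10.4 (Naa10-KO) (log2 change -1.16, SE 0.09, limma adjusted p = 0.0418). Its call ended without WT replicate 1 (adjusted p = 0.925) or WT replicate 2 (0.803), without rows at 0 and small RNA rows (adjusted p = 0.0819), without a filter (0.0557) and with the replicate block (0.112). The log2 difference of Mdm4 was -1.11 with scaling to a common median and -1.22 with 0.1 RPKM in place of 1 added before the log.

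Factors that read or maintain the imprints of these clusters formed the last list. None of 24 tested rows passed in limma, while 1 was higher and 7 lower at an unadjusted p under 0.05, beside 8.9% and 13.2% of all tested rows. Of the list 8 rows lay above and 13 below both WT libraries, beside 24.4% and 34.9%, and the median log2 difference was -0.11. Arid4b and Arid4a, a pair of chromatin proteins known to act on the Prader-Willi control region, had the smallest p of the list. Arid4b had 19.01 and 19.1 RPKM in the WT pair, against 9.19 and 9.97 in the Naa10-KO pair (log2 difference -0.93, SE 0.09, 95% interval -1.19 to -0.66, limma adjusted p = 0.0654). Arid4a measured 11.1 and 10.5 RPKM (WT) against 6.06 and 7.03 (Naa10-KO) (log2 difference -0.65, SE 0.12, adjusted p = 0.120). The groups did not overlap for either gene.

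**Figure D5:**
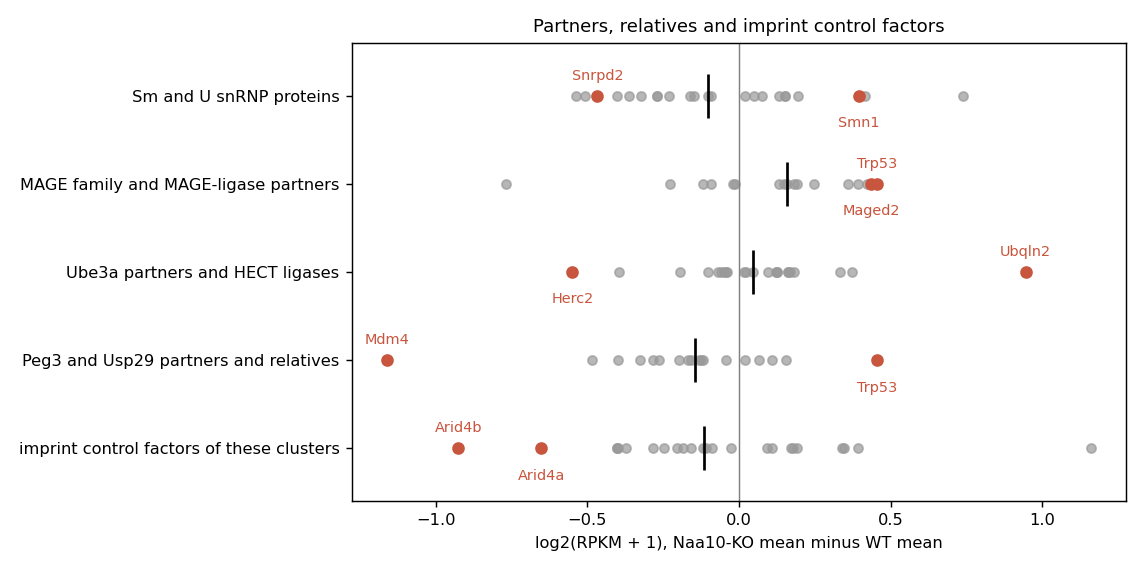
Log2(RPKM + 1) difference between Naa10-KO and WT means for every tested row of 5 lists (grey points), with list medians as vertical bars and the rows named by the rule in colour. Medians lie between -0.15 and 0.16, Mdm4 at -1.16 and Ubqln2 at 0.95.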

How the data were processed

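Each library came as 1 deposited table of RPKM, per the file headers, with the same 14099 rows. The submitters' processing notes name build mm9, Cufflinks and bedtools, without versions; of aligner and annotation, the sources used here say nothing. Counts were not used here. The test was limma 3.58.1 (R 4.3.3), two-sided, with a mean-variance trend, on log2(RPKM + 1), for rows that reached 1 RPKM in 2 or more libraries. Depth was estimated from the smallest steps of rows up to 75 bases long and from single-exon genes, assuming 200-base fragments. The depth relative to WT replicate 1 was the commonest ratio over classes of row length. It was held by 13 of 22 classes for WT replicate 2, 12 of 19 for Naa10-KO replicate 1 and 9 of 20 for Naa10-KO replicate 2. On that basis the WT libraries lay near sampling noise (mean chi-square 1.26 over 132 genes, where noise alone gives about 1; chi-square p = 0.0226) and both were kept, while the Naa10-KO libraries lay far from it (mean 24.8, median 5.80 over 112 genes). The fit was run on simulated data in which both genotypes had the same spread in each row. The real Naa10-KO pair differed by a median of 0.24 and the WT pair by 0.05, so the simulation does not cover this unequal spread. Other steps used Python 3.11.15 and pandas 2.3.3. Sequences are from RefSeq, GRCm38.p6, with 7 of 7 members matched by symbol. Members and lists were chosen with earlier results of these data known. Named rows are the members, the Naa10 row, all listed cluster neighbours (1 of them, counted in its list, is not reported here), the 2 rows of smallest p in each other list with any row that passed, and the 5 nearest profiles; Snrpb, Pou5f1 and the neural markers were added after their values were seen. Alternatives are given at the end.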

Additional observations from a re-analysis of the deposited data

How the results depend on the processing

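With the replicate number as a block, 17 rows were called higher and 27 lower, and neither D7Ertd715e nor Mdm4 passed, so both lists had 0 calls. Replicate deviations of WT and Naa10-KO correlated at -0.14 over 11658 rows, and with crossed numbers, an alternative chosen after seeing the data, 41 and 92 rows were called. Without a filter, 16 and 24 rows were called and 0 in both lists; over rows averaging at least 5 RPKM, 42 were called lower and 0 of the Prader-Willi neighbours; without rows at 0 and small RNA rows, limma called 0 rows in either direction and 0 in both lists, with 2624 at an unadjusted p under 0.05. The causes were not tested.

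Leaving out 1 library makes the spread come from the opposite pair alone. The calls over all rows then ran from 5 to 2820 higher and from 7 to 4261 lower, with the fewest when a WT library was dropped. Log2 differences ran from 0.61 to 0.63 for Snrpn with Snurf, 0.44 to 0.97 for Ndn, 0.18 to 0.36 for Ube3a and 0.60 to 0.69 for Peg3. Called rows ran from 0 to 4 among Prader-Willi neighbours, 0 to 3 among Peg3 neighbours, 0 to 12 for snRNP proteins, 0 to 9 for MAGE proteins, 0 to 12 for Ube3a partners, 0 to 10 for Peg3 and Usp29 partners and 0 to 18 for imprint control factors. Under the 7 other alternatives each member row stayed short of the threshold, with log2 differences from 0.27 to 0.78. The filters, the trend and the replicate block leave the log2 difference of a row as it is. Only scaling, and adding 0.1 RPKM in place of 1 before the log, could change it, and each member row stayed higher. All 4 member rows stayed above WT with scaling to a common median. Leaving out a library cannot change this count, because both Naa10-KO libraries already lay above both WT libraries in each row. Signs turned for Ipw without WT replicate 2 (-0.082 to 0.0026 over the libraries left out), Tubgcp5 without Naa10-KO replicate 2 (-0.27 to 0.082) and Zfp583 with scaling (0.00075). Usp29 and Zim1 gave no value under any alternative.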
